A study of Mus musculus with 4 samples.

Results

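The genes described are the mouse genes for mitochondrial ribosomal proteins, taken by symbol as every protein-coding gene named Mrpl (large subunit) or Mrps (small subunit) followed by a digit. Their members here are the chromatin accessibility peaks that lie within 1 kb of one of the start sites of these genes in GENCODE M21. The rule found 78 genes, 49 Mrpl and 29 Mrps, on 17 chromosomes, and each of the 78 had a peak. It gave 84 of the 128055 peaks of the series and of the 17661 peaks near a protein-coding start site. A single peak served 72 of the genes, 5 genes had 2 peaks and Mrpl48 had 3, while Mrpl46 and Mrps11 shared 1.

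The libraries were ATAC-seq libraries, in which a transposase cuts open chromatin, from mesenchymal stem cells of wild-type C57BL/6N mice aged 3 to 5 months, which the labels call bone-marrow cells and the study's methods describe as isolated from cleaned bone. Hypoxia libraries came from cells grown in 2% O2 and normoxia libraries from cells moved to 21% O2, with 2 libraries in each group. The cells of all 4 had been expanded in culture and purified by FACS on day 12, and the study named the 2 libraries of a group biologically independent. All 4 were thus cultured cells, and neither group was freshly isolated tissue. In bulk libraries a lower value can come from fewer cells with an open promoter or from less opening per cell, which cannot be told apart.

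Mitochondrial ribosomes translate the few respiratory chain proteins that are encoded in mitochondrial DNA. Their ribosomal RNAs come from mitochondrial DNA, but all of their proteins are made from nuclear genes, translated in the cytosol and imported. The large subunit holds the peptidyl transferase centre and the exit tunnel, and the small subunit binds the messenger RNA and decodes it. Many of these proteins have relatives in bacterial ribosomes and others were gained in mitochondria. The nuclear genes are broadly expressed, and their promoters commonly bind the factors NRF1, GABP of the ETS family, YY1 and SP1.

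The start-site sequences of the family carried some of these letters more often than those of other genes. RefSeq windows of 300 bases (GRCm38.p6), from 250 bases before the start to 50 after it, were matched by symbol for 69 of the 78 genes and gave 75 windows, all overlapping a peak of the table. Mrpl4, Mrpl13, Mrpl15, Mrpl19, Mrpl38, Mrpl54, Mrps28, Mrps34 and Mrps35 had no entry. The ETS letters CCGGAAG stood on either strand in 26 of the 75 windows (34.7%), against 11.9% of the 20150 windows of all protein-coding genes and 16.6% of the 13422 windows that overlapped a peak. The YY1 letters AAGATGGCG stood in 8 windows (10.7%, against 1.93% and 2.79%) and the NRF1 letters GCGCATGCG in 7 (9.33%, against 2.45% and 3.46%). For the SP1 letters GGGCGG the order differed, with 52% of member windows, 47.8% of all windows and 64.7% of those overlapping a peak. The CRE letters TGACGTCA stood in 2 windows (2.67%, against 2.31% and 3.11%). At least 1 of the 5 words was found in all but 16 windows. Matches to different words shared bases in 2 windows, neither of them an ETS and YY1 pair. These matches describe letters in a window and are not evidence of a bound factor.

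The stretches upstream of 4 members are shown because they set promoters that were called lower in normoxia (Mrps17 and Mrpl17) beside promoters that were not (Mrpl10 and Mrpl58), and because they hold the NRF1, ETS and SP1 words at the positions given. Each is read 5′ to 3′ on the gene's own strand in mm10, bases in annotated exons are left out, and capitals mark matches to any of the 5 words.
Mrps17: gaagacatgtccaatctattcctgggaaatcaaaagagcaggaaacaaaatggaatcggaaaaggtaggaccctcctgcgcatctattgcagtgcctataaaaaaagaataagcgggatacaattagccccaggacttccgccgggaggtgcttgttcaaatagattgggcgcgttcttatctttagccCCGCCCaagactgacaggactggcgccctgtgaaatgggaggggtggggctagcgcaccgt
Mrpl17: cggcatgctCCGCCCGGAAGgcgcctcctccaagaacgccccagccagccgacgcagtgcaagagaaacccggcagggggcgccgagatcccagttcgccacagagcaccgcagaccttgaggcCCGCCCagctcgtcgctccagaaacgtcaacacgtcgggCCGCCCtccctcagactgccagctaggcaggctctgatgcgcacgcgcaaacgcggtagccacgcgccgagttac
Mrpl10: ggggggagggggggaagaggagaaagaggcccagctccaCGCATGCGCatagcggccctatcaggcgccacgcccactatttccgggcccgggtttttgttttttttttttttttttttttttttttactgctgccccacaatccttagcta
Mrpl58: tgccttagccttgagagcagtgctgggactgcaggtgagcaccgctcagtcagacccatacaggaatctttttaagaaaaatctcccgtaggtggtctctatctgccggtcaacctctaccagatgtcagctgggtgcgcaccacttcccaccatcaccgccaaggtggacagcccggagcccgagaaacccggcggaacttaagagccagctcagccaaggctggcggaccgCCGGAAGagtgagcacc
The Mrps17 stretch (chr5:129715247-129715496, plus strand) held an SP1 word that began at base -61, counted back from the start site. The Mrpl17 stretch (chr7:105811100-105811337, minus strand) held SP1 words from bases -241, -126 and -87 and an ETS word from base -237 that shared bases with the first of them. The full Mrpl17 window also held an NRF1 word, which is not within the printed stretch. The Mrpl10 stretch (chr11:97041408-97041559, plus strand) held an NRF1 word from base -135. The Mrpl58 stretch (chr11:115403502-115403751, plus strand) held an ETS word from base -17. The peaks of Mrps17 and Mrpl17 were stronger, with mean values of 52.5 and 155, than those of Mrpl10 and Mrpl58, with 25.3 and 27.4. Other promoter peaks of equal mean value were called lower in 10%, 35%, 2% and 3.5% of cases, in that order. A link of these letters to the calls was not tested.

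The member peaks were somewhat narrower than other promoter peaks of the same strength, and many covered the start of a neighbouring gene. Of the 84 peaks, 80 lay over a start site of their gene and 4 lay beside it. Their median width was 1900 bases and their median GC content 50.4%. For each member, the 200 other promoter peaks nearest in mean value were taken for comparison, and these had a median width of 2300 bases and a GC content of 52.5%. The ratio of observed to expected CpG was 0.604 in members and 0.533 in the comparison peaks. Start sites of 2 or more protein-coding genes lay within 1 kb of 36 member peaks (42.9%), against 9.61% of the comparison peaks. Start sites on both strands were near 35 of them (41.7%, against 8.31%). Several partners also work in mitochondria. Mrpl36 stood beside Ndufs6 and Mrpl47 beside Ndufb5, both subunits of respiratory complex I. Mrpl43 stood beside Twnk, the mitochondrial DNA helicase, and Mrps12 beside Sars2, the mitochondrial seryl-tRNA synthetase. Mrpl46 and Mrps11, of different subunits, shared their only peak, and Mrpl49 stood beside Fau, which encodes a cytosolic ribosomal protein.

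The deposited value of a peak is its read count scaled to a common library total, and is not divided by peak width. Taking that total as 10000000 reads, libraries held 26680936 to 29965523 reads, and a member peak had a median of 178.5 reads in a library. Peaks on nuclear chromosomes took 49.2% and 53.2% of the reads in hypoxia but 31% and 35.2% in normoxia, and peaks on mitochondrial DNA took 7.77% and 9.13% against 1.5% and 2.34%. These shares separate the groups as the outcome does, and their part in the results was not tested. Hence folds are given after scaling by the median ratio over all peaks (RLE factors, as in the study) and, where it matters, as deposited. The labelled cell type was checked on promoter peaks of marker genes. A promoter peak was found for 9 of 10 stromal markers, including Pdgfra and Ly6a, with summed values of 1280 and 1294 in hypoxia and 726 and 796 in normoxia, and none was found for Lepr. Of 10 blood and endothelial markers 4 had one, with summed values of 110 to 127 in hypoxia and 75 to 100 in normoxia, and Ptprc, Cd3e and Cdh5 were among those with none.

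Accessibility at mitochondrial ribosomal protein promoters was lower in normoxia, by an amount close to that of other promoters of the same strength. In hypoxia the 84 peaks had a median deposited value of 77.3 and 79.7, and in normoxia one of 43.3 and 50.9. Reads in the 84 peaks summed to 24992 and 27144 in hypoxia and to 12808 and 16922 in normoxia. As a share of the reads in nuclear peaks they made up 0.18% and 0.173% in hypoxia and 0.155% and 0.16% in normoxia, so that the groups did not overlap. As deposited, the median log2 fold change (normoxia over hypoxia) was -0.74, all 84 were negative, and 78 peaks had both normoxia values under both hypoxia values (92.9%), against 59.5% of all peaks and 92.1% of comparison peaks. After RLE scaling the median was -0.29, with an interquartile range of -0.43 to -0.09 and 70 of 84 peaks negative, against -0.004 over all peaks and -0.27 over the other promoter peaks. Both normoxia libraries were then below both hypoxia libraries in 56 peaks (66.7%), against 29.6% of all peaks and 62.3% of comparison peaks, and above in 4. Once libraries were set to equal totals over peaks, the member median was -0.008 and 43 of 84 peaks were negative.

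Of the 84 peaks, 14 were called lower in normoxia (16.7%) by limma at a Benjamini-Hochberg FDR under 0.01 over all peaks, and 0 were called higher. Over all 128055 peaks 4.57% were called lower and 1.77% higher. Of the other promoter peaks 0.44% were called higher, and of the comparison peaks 0.45%. Among the other promoter peaks 16.7% were called lower, and among the comparison peaks of equal mean value 15.6%, so that the members' share was near the share of promoters in general. At an unadjusted p under 0.05, 39 members were lower and 2 higher. No share of other promoter peaks at that p is given here, so these counts are not set against promoters in general. edgeR on the reads called 18 lower (21.4%, against 20% of other promoter peaks and 19% of comparison peaks) and 0 higher. DESeq2 called 11 lower (13.1%, against 12.2% and 11%) and 0 higher. With the values as deposited limma called 56 lower (66.7%), against 24% of all peaks and 60.6% of other promoter peaks, and 0 higher. With 2 libraries in a group the smallest p an exact permutation test can give for a single peak is 0.333, so calls rest on the spread that limma pools over peaks, and p-values measure the spread between these libraries.

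**Figure D1:**
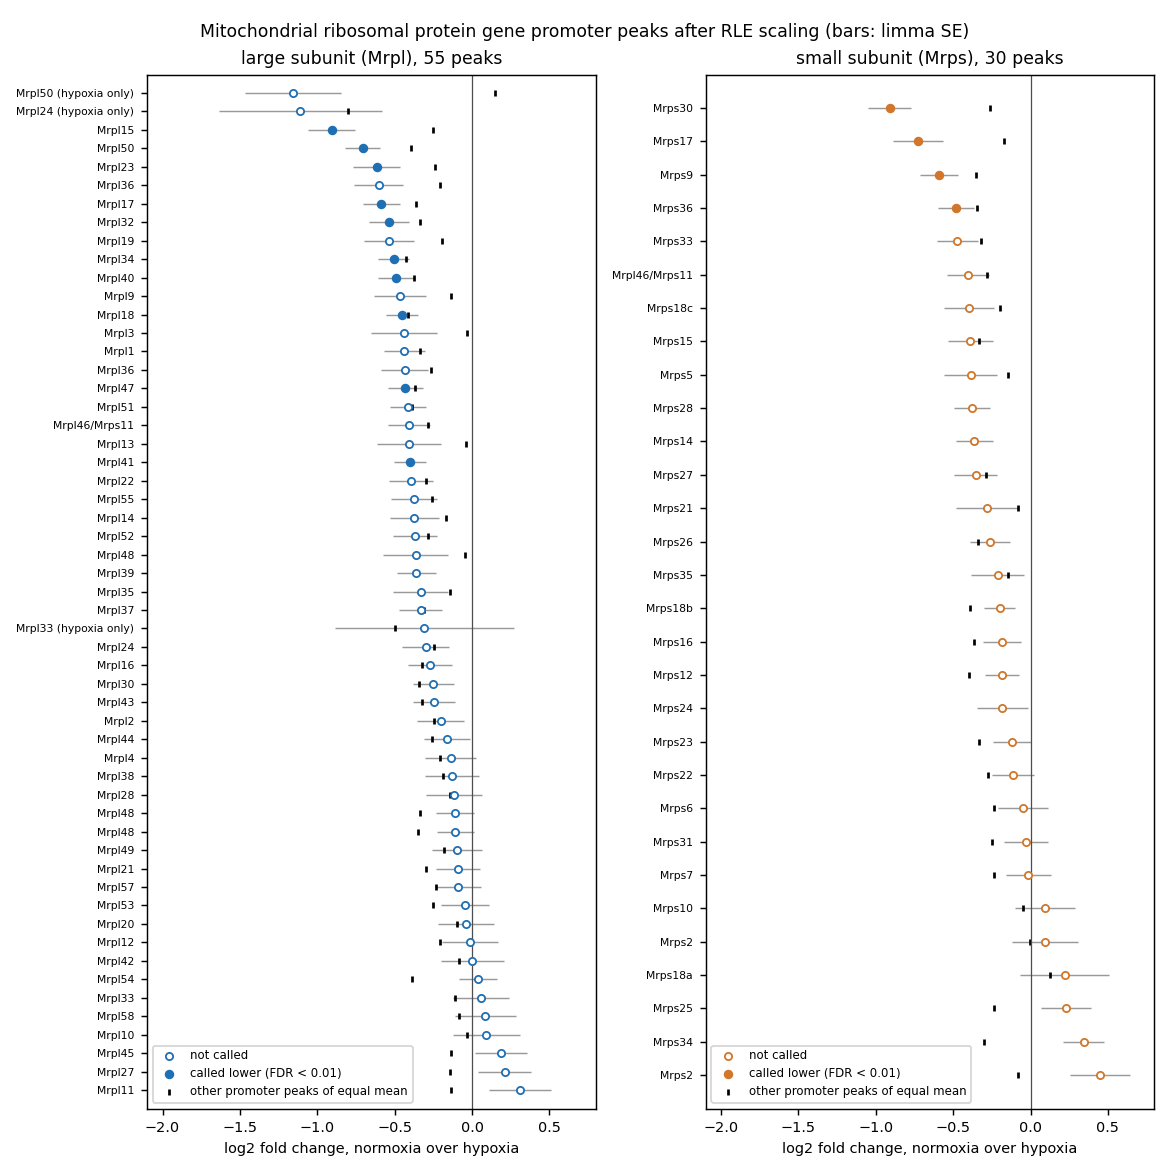
Log2 fold change (normoxia over hypoxia, RLE scaling) of every member peak, with Mrpl on the left and Mrps on the right; bars are limma standard errors, filled points are the 14 peaks called lower, and black ticks give the median of the 200 other promoter peaks of equal mean value. Points scatter on both sides of their ticks, with Mrps30, Mrpl15 and Mrps17 well to the left and Mrps34 and a Mrps2 peak to the right.

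Mrps30 and Mrpl15 had the lowest fold changes among peaks assigned to both groups. The protein of Mrps30, despite its name, sits in the large subunit. Its peak (chr13:118386201-118387900), which also covers the start of B430218F22Rik, had values of 122 and 122 in hypoxia and 42.4 and 50.7 in normoxia. Normoxia was thus far below both hypoxia libraries, with a log2 fold change of -0.91 ± 0.14 (SE) and an adjusted p of 5.71e-05. Mrpl15 encodes a large subunit protein with a bacterial relative. Its peak (chr1:4784501-4786500) had 103 and 95.9 in hypoxia and 32.6 and 43.4 in normoxia, and a log2 fold change of -0.91 ± 0.15 (adjusted p = 0.000163). Both lay below comparison peaks of equal mean value, with differences of -0.65 for each on the log2 scale. These peaks were also called lower in 14 of 17 other fits, including those under every other scaling of the libraries but not those without either hypoxia library or without trend and robust fitting, with folds from -0.62 with equal totals to -1.48 with totals that left out mitochondrial reads.

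Mrps17, a small subunit protein with a bacterial relative, followed. Its peak (chr5:129714801-129716100) had 73.6 and 73.1 in hypoxia and 28.5 and 34.7 in normoxia, for a fold of -0.73 ± 0.16 (adjusted p = 0.0022), and it missed the threshold with equal totals (-0.44) and cyclic loess (-0.61). The main peak of Mrpl50 (chr4:49519401-49521800), a mitochondria-specific protein of the large subunit whose start lies near Zfp189, had 283 and 310 in hypoxia and 111 and 153 in normoxia. It changed by -0.71 ± 0.11 (adjusted p = 0.000117), and none of the 4 libraries crossed between groups; under cyclic loess it changed by -0.34 and missed the threshold. A weaker shoulder of this promoter (chr4:49521801-49523100) was assigned by the peak caller to hypoxia alone. It had 13.1 and 18.4 in hypoxia and 3.37 and 6.01 in normoxia, and its log2 difference of -1.16 ± 0.31 missed the threshold (adjusted p = 0.0114). It was called lower in 8 of 17 other fits, among them edgeR with RLE factors (adjusted p = 0.00736) and cyclic loess (0.00443). The shoulder was assigned to hypoxia alone, so a low normoxia value there was favoured in advance and adds no support to the main peak. It also lies near Zfp189 and rests on few reads.

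Also called lower were 2 genes of the large subunit and 2 named for the small subunit. Mrpl23, whose protein lies at the tunnel exit, had 78.2 and 78.5 in hypoxia and 33.4 and 39.7 in normoxia (chr7:142532101-142535300, -0.62 ± 0.15, adjusted p = 0.00625). Mrpl17, whose protein is also of bacterial type, had 200 and 218 in hypoxia and 87 and 114 in normoxia (chr7:105809701-105811900, -0.59 ± 0.12, adjusted p = 0.00118). Both had normoxia libraries well apart from the hypoxia libraries. In the small subunit Mrps9, whose bacterial relative reaches the tRNA in the P site, had 171 and 183 in hypoxia and 75.7 and 93.1 in normoxia (chr1:42850601-42852400, -0.59 ± 0.12, adjusted p = 0.00135). Mrps36 had 195 and 220 in hypoxia and 97.4 and 116 in normoxia (chr13:100743501-100745500, -0.48 ± 0.12, adjusted p = 0.0047). Its product carries a ribosomal name but belongs to the alpha-ketoglutarate dehydrogenase complex, so it is no ribosome component. None of these 4 was called with equal totals or cyclic loess. Their folds under cyclic loess were -0.48 for Mrpl23, -0.27 for Mrpl17, -0.30 for Mrps9 and -0.16 for Mrps36, with adjusted p of 0.0454, 0.113, 0.0897 and 0.371.

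The other 6 called peaks each lay near the start of another gene. Mrpl18 (chr17:12915301-12917400), whose bacterial relative binds 5S rRNA and whose start lies near the chaperonin gene Tcp1, had the highest value per kb of all members, 115. It had 311 and 323 in hypoxia and 154 and 179 in normoxia (-0.45 ± 0.10, adjusted p = 0.0032). Mrpl47 (chr3:32736001-32738000), beside Ndufb5, had 253 and 258 in hypoxia and 121 and 152 in normoxia (-0.43 ± 0.11, adjusted p = 0.00835). In both the groups were apart, but the differences from comparison peaks of equal mean value were small, -0.04 and -0.06. Mrpl32 beside Psma2 (-0.54), Mrpl34 beside Abhd8 (-0.51), Mrpl40 beside Hira (-0.49) and Mrpl41 beside Pnpla7 (-0.40), had adjusted p from 0.00103 to 0.00677. Their differences from comparison peaks were -0.20, -0.08, -0.11 and 0.01. None of the 6 was called under cyclic loess, which takes out a trend of fold with strength, and their folds there ran from -0.28 at Mrpl32 to 0.02 at Mrpl41. Mrpl36, Mrps33 and Mrpl51 missed the threshold with limma and were called by edgeR with RLE factors (adjusted p = 0.0059, 0.00767 and 0.00789). Mrpl51 (chr6:125191101-125194200), beside Ncapd2, had 218 and 220 in hypoxia and 108 and 128 in normoxia (-0.41 ± 0.11, limma adjusted p = 0.013). Mrpl36 (chr13:73330401-73332200) had 72.2 and 72.8 in hypoxia and 29.2 and 39.4 in normoxia (-0.60 ± 0.16, adjusted p = 0.0101), and Mrps33 (chr6:39810001-39811700) had 153 and 172 against 68.2 and 102 (-0.47 ± 0.13, adjusted p = 0.0153).

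**Figure D2:**
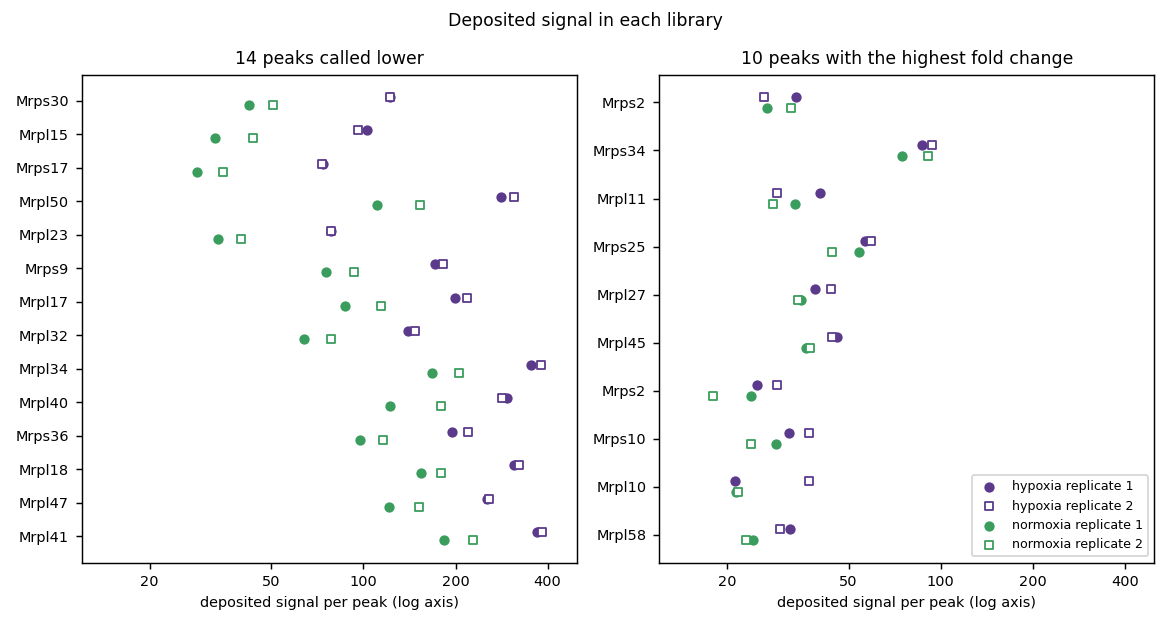
Deposited signal of single member peaks on a log axis, with purple for hypoxia, green for normoxia, circles for replicate 1 and squares for replicate 2. In the 14 peaks called lower every normoxia library lies left of both hypoxia libraries; in the 10 peaks with the highest fold change, among those with a mean of at least 20, the groups lie close together or overlap.

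At the other end of the range, a few promoters kept about the same deposited value in both groups. Mrps34, a mitochondria-specific small subunit protein (chr17:24893001-24899800, beside Eme2 and Nme3), had 87.1 and 93.8 in hypoxia and 74.6 and 91.1 in normoxia, so that the groups overlapped as deposited. After RLE scaling its log2 difference was 0.34 ± 0.13 (adjusted p = 0.0773), and 0.64 above comparison peaks of equal mean value. It was called higher with equal totals (0.63), quantile normalization (0.58) and cyclic loess (0.57), and its sign was negative as deposited (-0.13). Mrps2, a small subunit protein of bacterial type, had a peak upstream of its start (chr2:28465601-28467200, also near 1700007K13Rik) with 33.6 and 26.5 in hypoxia and 27 and 32.4 in normoxia (0.45 ± 0.19, adjusted p = 0.117). Its peak over the start (chr2:28467701-28468700) had 25.1 and 29.2 in hypoxia and 24 and 18 in normoxia (0.09 ± 0.21). Neither peak of Mrps2 passed the test.

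Genes of the stalk, which recruits translation factors, were named for their role. Mrpl11 (chr19:4961601-4962800), at the stalk base, had 40.3 and 29.2 in hypoxia and 33.4 and 28.4 in normoxia (0.31 ± 0.20). Mrpl10 (chr11:97040701-97042100), the stalk's anchor, had 21.2 and 37.1 in hypoxia and 21.4 and 21.7 in normoxia (0.09 ± 0.22). Mrpl12 (chr11:120483701-120485600), the stalk protein itself, had 63.7 and 43.5 in hypoxia and 36 and 39 in normoxia (-0.01 ± 0.18). In each of these genes the 2 hypoxia libraries were far apart, and for Mrpl10 and Mrpl11 the groups overlapped, while at Mrpl12 normoxia was below hypoxia as deposited. Mrpl45, which faces the inner membrane near the exit tunnel, had 45.6 and 44.2 in hypoxia and 36.4 and 37.4 in normoxia (chr11:97314801-97316500, 0.19 ± 0.17). Mrpl58 (ICT1), a peptidyl-tRNA hydrolase that became part of the ribosome, had 32.2 and 29.9 against 24.4 and 23 (chr11:115403201-115404500, 0.09 ± 0.20). As deposited, normoxia was below hypoxia for both, without overlap, by less than at most members. Mrpl27 (chr11:94653201-94654700, 0.21), Mrps25 (chr6:92180601-92185800, 0.23) and Mrps10 (chr17:47368301-47369500, 0.09) completed the peaks with the highest folds, with adjusted p between 0.362 and 0.794. None of these 8 passed the test, and all were negative as deposited.

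Of the other members named for their role, some of them near the catalytic and decoding centres, the 7 given next did not pass the test. Mrpl2, near the peptidyl transferase centre, had 76.4 and 68.3 in hypoxia and 44.6 and 45.4 in normoxia (chr17:46644801-46646900, -0.20 ± 0.15, adjusted p = 0.402). Mrpl3, near the same centre, had 27.2 and 38.8 in hypoxia and 17.6 and 16.4 in normoxia (chr9:105052901-105054100, -0.44 ± 0.21, adjusted p = 0.159). In both genes all normoxia values were below all hypoxia values. Mrps12 (chr7:28740601-28743300), of the decoding centre, had 228 and 226 in hypoxia and 145 and 141 in normoxia (-0.19 ± 0.11, adjusted p = 0.278). Mrps5 (chr2:127586701-127588500), of the mRNA entry side, had 49.5 and 50.3 against 27 and 27.4 (-0.39 ± 0.17, adjusted p = 0.127). The replicates of Mrps12 and Mrps5 lay close together while the groups were apart, yet after RLE scaling neither gene passed the test. Mrps16 (chr14:20392401-20394500, -0.19), Mrps22 (chr9:98599901-98602200, -0.11) and Mrpl44 (chr1:79775501-79776600, -0.16), a protein with an RNase III-like fold, had adjusted p from 0.323 to 0.63.

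The gene family of Mrps18 offers paralogs to compare. All 3 proteins are relatives of bacterial S18, and that of Mrps18a sits in the large subunit. Mrps18b (chr17:35915101-35923000) had 367 and 392 in hypoxia and 214 and 261 in normoxia, Mrps18c (chr5:100797701-100799400) had 72.5 and 68 against 31.9 and 45.4, and Mrps18a (chr17:46110501-46111300) had 13.1 and 13.9 against 16.1 and 8.01. The deposited values, which are not divided by width, thus differed widely between paralogs, and the groups overlapped only at Mrps18a. In the same order the peaks were 7900, 1700 and 800 bases wide. Their values per kb were 39.1, 32 and 16 and lay closer together. Log2 differences after RLE scaling were -0.20 ± 0.10 for Mrps18b, -0.40 ± 0.16 for Mrps18c and 0.22 ± 0.29 for Mrps18a, and none passed the test. The difference between paralogs was not tested.

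Peaks assigned to 1 group only were shoulders of a stronger member peak. Besides that of Mrpl50, a peak beside Mrpl24 (chr3:87920801-87921000) had 1.77 and 2.04 in hypoxia and 0.375 and 0 in normoxia, and a peak beside Mrpl33 (chr5:31614701-31614800) had 0 and 1.36 against 0 and 0.334. Neither passed the test (adjusted p = 0.155 and 0.771), and values this low rest on a few reads. No member peak was assigned to normoxia alone.

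Fold change followed peak strength among the members as it did among other promoters. In the weakest 21 peaks, 0 were called lower by limma, against 2.45% of comparison peaks, and the median log2 fold change was -0.04, where comparison peaks of equal mean value gave -0.08. In the next 21 peaks 3 were called, against 7.48% of comparison peaks, and the median was -0.20 (comparison -0.20). In the third group of 21 peaks 2 were called, against 14.5%, and it was -0.33 (comparison -0.30). In the strongest 21 peaks 9 were called, against 38%, and it was -0.40 (comparison -0.37). Over the 81 peaks assigned to both groups, Spearman's rho between fold change and mean level was -0.41, that with width was -0.10 and that with GC content 0.09. These points share the same 4 libraries, and the fold and the level come from the same values. The difference between each member and its comparison peaks had a median of 0.0038, an interquartile range of -0.18 to 0.17, and was negative in 41 of 84.

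**Figure D3:**
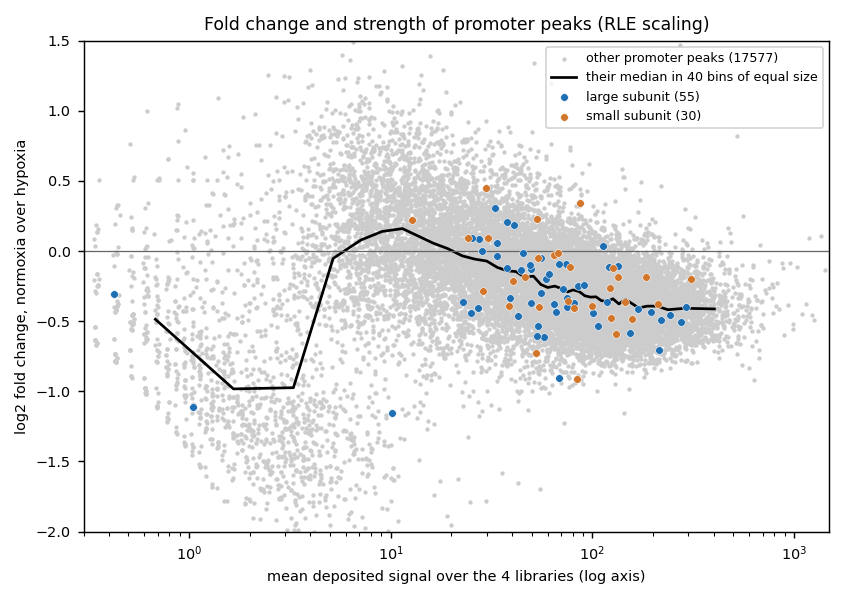
Log2 fold change (RLE scaling) against mean deposited signal, on a log axis, for 17577 other promoter peaks (grey), their median in 40 bins of equal size (line), and the 55 large and 30 small subunit peaks, the peak shared by Mrpl46 and Mrps11 counted in both. Member peaks with a mean above 20 lie around the line, which falls with strength there; points outside the vertical range are not drawn.

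By subunit, 10 of 55 large subunit peaks and 4 of 30 small subunit peaks were called lower (18.2% and 13.3%, against 15% and 16.7% of their comparison peaks), the shared peak standing in both and not called. The median log2 fold change was -0.33 in the large and -0.21 in the small subunit, and the median difference from comparison peaks was -0.02 and 0.04. Placing Mrps30 and Mrps18a with the large subunit and leaving out Mrps36, as structures do, gave 11 of 57 (19.3%, against 14.7%) and 2 of 27 (7.41%, against 16.8%). A split by likely bacterial ancestry, set by the number in the symbol (up to Mrpl36 and Mrps21) after values were seen, gave 8 of 48 called for bacterial-type proteins and 6 of 36 for the others, Mrps36 among them, with medians of -0.32 and -0.23. Comparison peaks were called in 13.3% and 18.8% of cases. Peaks near another protein-coding gene were called in 8 of 35 cases and the others in 6 of 49, with medians of -0.33 and -0.28. These shares of 22.9% and 12.2% stood beside 20.4% and 12.2% of comparison peaks. None of these splits was tested. Of the 70 peaks with a RefSeq window, those with an ETS word were called in 3 of 26 cases and those without in 10 of 44, with medians of -0.25 and -0.32 and with 19.7% and 15.2% of comparison peaks called. Those with an NRF1 word were called in 2 of 7 cases (median -0.40, comparison 22.5%), and those without in 11 of 63 (median -0.26, comparison 16.3%). Those with a YY1 word were called by limma in 0 of 8 (median -0.33, comparison 7.44%), with 4 lower at an unadjusted p under 0.05. Those without it were called in 13 of 62 (median -0.27, comparison 18.1%). With an SP1 word 8 of 34 were called (median -0.37, comparison 21.3%), and without it 5 of 36 (median -0.21, comparison 12.7%). The splits by word were not tested either.

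Counts were also made for 2 like gene groups. Promoter peaks of cytosolic ribosomal proteins were called lower in 12 of 93 cases (12.9%, against 21.6% of their comparison peaks) with a median of -0.33. Those of oxidative phosphorylation subunits, the machine that mitochondrial ribosomes supply, were called lower in 14 of 92 (15.2%, against 17.2%) with a median of -0.32. The member peaks that Mrpl47 shares with Ndufb5 (called lower) and Mrpl36 with Ndufs6 (not called) are counted in this group too. Against comparison peaks of equal mean value their median differences were -0.03 and -0.03. The differences between these groups and the members were not tested.

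Other genes of mitochondrial translation were described from lists. Peaks of ribosomal proteins under other names were called lower in 0 of 5 cases (limma; 1 at an unadjusted p under 0.05), those of mitochondrial translation factors in 3 of 13 and those of assembly and rRNA modification factors in 8 of 37, with medians of -0.15, -0.36 and -0.41. Peaks of mitochondrial aminoacyl-tRNA synthetases were called lower in 4 of 19 cases (median -0.24), of mitochondrial DNA transcription and RNA stability in 5 of 16 (median -0.47) and of regulators of nuclear mitochondrial genes in 2 of 11 (median -0.17). No peak of these lists was called higher. Of the other promoter peaks 16.7% were called lower. Comparison peaks of equal mean value were called lower in 9.8%, 13.9%, 18.4%, 21.2%, 16.2% and 30.8% of cases, in the order of the lists above. These counts are small, and no test set them apart from promoters in general or from comparison peaks.

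The size of the member folds depended on the scaling of the libraries. Across 6 scalings the member median ran from -0.84 to -0.008 and calls from 66 to 2. The median over all peaks was -0.53 with totals without mitochondrial reads, -0.44 as deposited and 0.26 with equal totals, and between -0.0047 and -0.0022 with the other 3 scalings. Comparison peaks of equal mean value were called lower in 66.2% of cases as deposited, 15.6% after RLE scaling and 1.18% after quantile normalization, where members were called in 66.7%, 16.7% and 2.38%. Most of these scalings shift every peak of a library alike, so they cannot move a member against its comparison peaks.

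**Figure D4:**
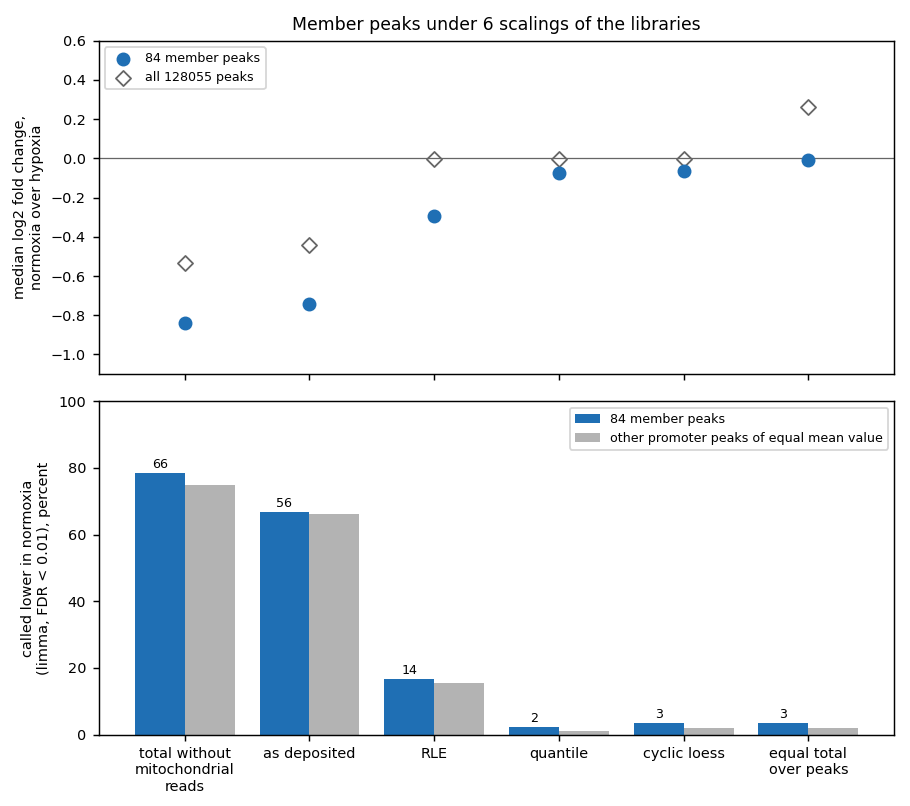
Top, median log2 fold change (normoxia over hypoxia) of the 84 member peaks (circles) and of all 128055 peaks (diamonds) under 6 scalings; bottom, percent of the member peaks (blue, with the number called) and of promoter peaks of equal mean value (grey) called lower in normoxia by limma. The number of members called runs from 66 to 2, and the grey bars fall with the blue ones.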

How the data were processed

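ATAC-seq was measured in 4 libraries, 2 per oxygen group, grouped by their labels. The authors used Bowtie2 for alignment (mm10), Picard for duplicates and chromstaR for peaks over both conditions, and deposited a table of signal per peak. It is named as RPKM, but 100% of the deposited signal values were whole multiples of 1 step per library (tolerance 0.01 of the step) and were not divided by width, so whole reads were recovered for count tests; library totals follow if values are scaled to 10000000 reads. No peak position was converted between builds.

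Peaks within 1 kb of a protein-coding start site (GENCODE M21) were promoter peaks. All peaks were fitted with limma 3.58.1 (trend, robust, R 4.3.3) on log2(signal + 1) after RLE scaling (factors 1.13, 1.23, 0.81 and 0.89). Adjustment was by Benjamini-Hochberg, with FDR under 0.01. The fit was also run on simulated data, whose changed peaks had larger folds than any called member, so it does not speak to these calls. The study used edgeR with RLE factors; edgeR 4.0.16 and DESeq2 1.42.0 on recovered reads were alternatives, with other scalings, pseudocounts, filters and left-out libraries. Levels were compared with the 200 promoter peaks nearest in mean. Promoter windows and motifs were read from RefSeq (GRCm38.p6) with Python 3.11.15.

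Members, lists and tests were chosen with earlier results of these data known. Genes named were 16 chosen for their role, in each subunit the 5 lowest and 5 highest folds at a mean value of at least 20, the 3 highest values per kb, peaks called higher and peaks of 1 group only. Called peaks outside this rule (Mrpl32, Mrpl34, Mrpl40 and Mrpl41), Mrpl51 and the gene partners were named after their values were seen. Same-numbered libraries did not deviate together (correlation 0.011 over all peaks), but with 2 libraries in a group this cannot show whether numbers paired them. The paper describes sorted cells that were split between the 2 oxygen conditions, and the labels do not say which libraries shared a source. The fit used had no pairing term.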

Additional observations from a re-analysis of the deposited data

How the results depend on the processing

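The median over the member peaks was negative under every setting tried. Calls of lower peaks, 14 by limma after RLE scaling, were 56 as deposited, 66 with library totals without mitochondrial peak reads (chosen after seeing the data), and 3, 3 and 2 with equal totals over peaks, cyclic loess and quantile normalization, each of which called 1 peak higher. The median log2 fold change in these fits was -0.74, -0.84, -0.00802, -0.0624 and -0.0724. Members were called lower there in 66.7%, 78.6%, 3.57%, 3.57% and 2.38% of cases. Other promoter peaks were called in 60.6%, 67.6%, 2.3%, 2.04% and 1.17%. An FDR under 0.05 gave 25 calls (29.8%, against 30.1% of other promoter peaks). Peaks with no other gene within 1 kb gave 6 of 49 (12.2%, against 12.2% of their comparison peaks). Without both trend and robust fitting limma called 0 members and 0 of all peaks, where 39 members had an unadjusted p under 0.05 in the fit used and edgeR called 18. Leaving out a library gave 0 to 24 lower calls: 0 without hypoxia replicate 1 or 2, 8 without normoxia replicate 1 and 24 without normoxia replicate 2, the lone library being assumed to vary like the other group, and 0 of all 128055 peaks were called without either hypoxia library. The median difference from promoter peaks of equal mean value, 0.0038, was -0.019 to -0.0057 when a library was left out, 0.047 with comparison peaks also equal in width and 0.018 with 50 comparison peaks. The fit with the replicate block called 19 (22.6%, against 22.2% of other promoter peaks). Pseudocounts of 0.1 and 5 gave 10 and 15, a mean value of at least 5 gave 18, edgeR 18 with RLE and 18 with TMM, and DESeq2 11. In that order, members were called lower in 11.9%, 17.9%, 22%, 21.4%, 21.4% and 13.1% of cases. Other promoter peaks were called in 12.7%, 16.7%, 19.2%, 20%, 18.7% and 12.2%. Of the 14 calls, 14 were shared by edgeR and 11 by DESeq2, which gave 1 of them no adjusted p. Medians beyond the RLE value by the spread between libraries (0.0615) were those of the scalings above. Depth of a few reads limits the 3 peaks assigned to hypoxia only.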
